A study of Mus musculus with 40 samples.

Results

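The 10 genes followed here are all carriers that move sugars, small peptides or amino acids across the enterocyte, the absorptive cell of the intestinal villus. They were taken by name from the deposited table, which lists 15958 genes, and all 10 of the 10 listed genes were found in it. Of these, 3 carry sugars (*Slc5a1*, *Slc2a2* and *Slc2a5*), 1 carries peptides (*Slc15a1*), and 6 carry amino acids (*Slc6a19*, *Slc6a20a*, *Slc7a9*, *Slc3a1*, *Slc1a1* and *Slc7a8*).

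The bowel takes up nutrients through carriers of the brush border, which faces the lumen, and through other carriers of the basolateral membrane, which faces the blood. Glucose and galactose enter with sodium through SGLT1 (*Slc5a1*), fructose enters through GLUT5 (*Slc2a5*), and sugars leave the cell through GLUT2 (*Slc2a2*). PEPT1 (*Slc15a1*) takes up dipeptides and tripeptides with protons. Neutral amino acids enter through B0AT1 (*Slc6a19*), proline through SIT1 (*Slc6a20a*), acidic amino acids through EAAC1 (*Slc1a1*), and cystine and dibasic amino acids through a heterodimer of rBAT (*Slc3a1*) and b0,+AT (*Slc7a9*). LAT2 (*Slc7a8*) exchanges neutral amino acids at the basolateral side. After loss of bowel, the remnant has to absorb what the whole small intestine did, and its carriers are a standard measure of that adaptation.

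Bulk RNA sequencing of the duodenum and of the ileum past the anastomosis gave 22 libraries, 11 from each region. The mice were wild-type C57BL/6 males, 8 weeks old at surgery. In each region, 3 libraries came from mice with a sham operation and vehicle (sham), 4 from mice with small bowel resection (SBR) and vehicle, and 4 from mice with SBR and WUSTL0717, a putative gut-restricted agonist of the liver X receptor (LXR). The labels give the extent of the resection as 50-60%. The published description of the operation gives a larger extent, and which of them holds for these mice is not known. WUSTL0717 was given at 30 mg/kg each day from week 3 after surgery for 7 weeks, so tissue was taken at 10 weeks. No sham group received the drug, so the drug was compared only within SBR mice, and the sources do not say whether a duodenum and an ileum came from 1 mouse.

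All values are log2 TPM, a transcript abundance scaled by gene length and library, after the authors' batch correction with ComBat. Both regions were sequenced in batch 1, so a gene can be compared between them. Levels of different carriers were not compared, because the correction shifts each gene by its own amount. The marker sums given below add corrected values of different genes, so these shifts set the weight of each gene in a sum. A sum was set only against the same sum in other libraries. A difference of 1 on this scale is a change of 2-fold in the corrected value. Genes with a mean of at least 1 in the libraries fitted were tested with limma, and a gene was called at an adjusted p (Benjamini-Hochberg over all tested genes) under 0.05. The tested genes numbered 15093 in the duodenum and 15772 in the ileum. These were whole-tissue samples, in which fewer enterocytes and less RNA per enterocyte cannot be told apart. The read depth per library is unknown.

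The region labels held. The duodenal factor *Pdx1* was between 3.89 and 4.81 in every duodenal library and at most 0.47 in the ileum, and the ileal bile acid carrier *Slc10a2* was between 4.42 and 7.19 in the ileum and at most 0.96 in the duodenum. *Abca1*, the cholesterol exporter that LXR induces, was higher with WUSTL0717 than with vehicle after SBR by 3.55 (SE 0.50) in the duodenum and by 2.79 (SE 0.34) in the ileum (limma, adjusted p = 0.0136 and 0.0165), with no overlap of the groups in either region. Markers of other tissue differed between some groups. The summed level of 9 pancreatic acinar markers (*Ctrb1* and others) was 6.83 to 10.66 in sham duodenum, 4.95 to 10.15 in SBR vehicle duodenum and 7.75 to 10.94 in WUSTL0717 duodenum, against 2.23 to 2.32 in the ileum, where *Ctrb1* was below 0 in every library. The summed level of 8 enterocyte markers, most of it *Apoa1*, was 10.04 to 12.41, 12.64 to 13.58 and 13.17 to 14.18 in the same 3 duodenal groups. Of the 8, 6 had a positive difference after SBR in the duodenum (median 0.37) and 4 with WUSTL0717 (median -0.005), and none was called. In the ileum the sum was 12.37 to 14.50 in sham, 11.93 to 13.12 in SBR vehicle and 13.81 to 16.16 with WUSTL0717, with no overlap between the last 2, while the median difference of the 8 markers between those groups was 0.11. Summed leukocyte markers (6 of 7 in the table) were 6.70 to 7.39 in sham duodenum, 5.01 to 6.59 in SBR vehicle and 5.42 to 6.36 with WUSTL0717. After SBR in the duodenum, 0 of 6 leukocyte, 0 of 6 fibroblast and 0 of 5 smooth muscle markers tested had a positive difference (medians -0.80, -0.64 and -0.55, none called), where the median over all genes was -0.36.

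In GRCm38 (GENCODE M21), the sugar carriers lie at chr5:33104219-33162870 (*Slc5a1*), chr3:28697903-28731359 (*Slc2a2*) and chr4:150119283-150144169 (*Slc2a5*), all on the plus strand, and *Slc15a1* lies at chr14:121459621-121505252 on the minus strand. The amino acid carriers lie at chr13:73679745-73704865 (*Slc6a19*, minus), chr9:123634770-123678885 (*Slc6a20a*, minus), chr7:35448796-35466036 (*Slc7a9*, plus), chr17:85028376-85064236 (*Slc3a1*, plus), chr19:28835049-28913960 (*Slc1a1*, plus) and chr14:54722209-54781946 (*Slc7a8*, minus). All 10 are protein coding. *Slc6a20a* has a close copy, *Slc6a20b*, and only reads that fell on 1 place were counted, so its value is less certain.

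The bases just upstream of the start are shown for the 3 sugar carriers and *Slc3a1*, the genes with the largest differences after SBR in the duodenum. They are from RefSeq (GRCm38.p6), plus strand, 5′ to 3′, and end at the base before the RefSeq start, which for *Slc3a1* lies upstream of the GENCODE start given above. The *Slc2a5* stretch ends earlier, at the base before its GENCODE start. They span chr5:33103969-33104218, chr3:28697653-28697902, chr4:150119094-150119282 and chr17:85028097-85028346. Capitals mark matches to 6 motifs of intestinal and nutrient-responsive factors, searched on both strands.
Slc5a1: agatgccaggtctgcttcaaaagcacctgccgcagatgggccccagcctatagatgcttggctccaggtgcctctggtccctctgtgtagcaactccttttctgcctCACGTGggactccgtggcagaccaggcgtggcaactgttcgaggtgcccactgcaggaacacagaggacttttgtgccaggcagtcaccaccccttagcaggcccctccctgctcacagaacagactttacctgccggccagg
Slc2a2: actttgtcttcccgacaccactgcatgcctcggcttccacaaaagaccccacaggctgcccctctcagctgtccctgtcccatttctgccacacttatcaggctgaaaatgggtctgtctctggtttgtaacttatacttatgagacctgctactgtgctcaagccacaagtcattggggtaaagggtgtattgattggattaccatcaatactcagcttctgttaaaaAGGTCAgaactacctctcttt
Slc2a5: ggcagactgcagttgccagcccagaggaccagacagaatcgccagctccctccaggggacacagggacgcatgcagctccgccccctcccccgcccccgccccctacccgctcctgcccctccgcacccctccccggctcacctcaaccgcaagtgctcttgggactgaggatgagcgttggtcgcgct
Slc3a1: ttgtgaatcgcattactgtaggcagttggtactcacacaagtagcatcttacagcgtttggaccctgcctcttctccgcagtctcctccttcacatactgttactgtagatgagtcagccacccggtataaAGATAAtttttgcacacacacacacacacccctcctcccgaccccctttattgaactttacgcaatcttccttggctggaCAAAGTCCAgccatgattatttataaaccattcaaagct

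One motif was GTTAAT, part of the element bound by HNF1 factors, and another was AGATAA, which GATA factors bind. The motif TTTATG is that of the intestinal factor CDX2, and CAAAGTCCA is that of HNF4. The motif AGGTCA is a single repeat of the nuclear receptor element, of which the LXR element holds a pair. The last was CACGTG, an E box, the core of the element bound by ChREBP. *Slc5a1* held an E box 143 to 138 bases before its start, a motif present in 6.02% of 32851 promoter windows of 250 bases. *Slc2a2* held AGGTCA 21 to 16 bases before its start, present in 14% of windows. *Slc3a1* held AGATAA at 119 to 114 and CAAAGTCCA at 39 to 31 bases, present in 9.99% and 0.384% of windows. No match overlapped another, and the 250 bases of *Slc2a5* held none of the letters searched. GTTAAT was in 6.43% and TTTATG in 10.8% of windows. A match describes letters only and no binding was measured here.

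The first comparison asked which carriers differ in the duodenum, upstream of the resected bowel, after SBR. *Slc5a1* and *Slc2a5*, which take up glucose and fructose at the brush border, had the largest differences. *Slc5a1* was 5.34, 5.99 and 5.43 in the sham libraries and 7.64, 6.71, 8.29 and 6.84 in the SBR vehicle libraries. *Slc2a5* was 3.93, 4.12 and 4.02 in sham and 5.72, 5.23, 6.16 and 5.64 in SBR vehicle. Every SBR vehicle library lay above every sham library for both genes. The log2 difference was 1.78 (SE 0.45, 3.44-fold, 95% interval 0.80 to 2.76) for *Slc5a1* and 1.67 (SE 0.35, 3.18-fold, 0.91 to 2.42) for *Slc2a5*. Both had an exact two-sided permutation p of 0.0286, the smallest that 4 libraries against 3 can give. Neither passed adjustment over all genes (limma, unadjusted p = 0.00186 and 0.000404, adjusted p = 0.238 and 0.154).

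*Slc3a1*, the heavy chain that brings b0,+AT to the brush border, was 3.36, 4.44 and 3.28 in sham and 5.01, 4.81, 5.37 and 4.74 in SBR vehicle, a difference of 1.29 (SE 0.42) with no overlap. Its light chain *Slc7a9* differed by only 0.16 (SE 0.29) and its groups overlapped. *Slc6a19* was 2.64, 3.20 and 3.17 in sham and 3.57, 3.75, 4.00 and 3.91 in SBR vehicle, a difference of 0.81 (SE 0.31) with no overlap. *Slc15a1* differed by 0.64 (SE 0.30), also with no overlap. These 3 genes had exact permutation p-values of 0.0286 each and limma adjusted p-values of 0.274, 0.28 and 0.321. *Slc2a2*, at 7.29 ± 0.43 (SD, n = 3) in sham and 8.23 ± 0.70 (SD, n = 4) in SBR vehicle, *Slc7a8* and *Slc6a20a* differed by 0.94, 0.68 and 0.16 with overlapping groups. Without SBR vehicle library 3, the highest of its group for both, *Slc2a2* differed by 0.62 and *Slc7a8* by 0.29, and without sham library 1 *Slc7a8* differed by 0.39. *Slc6a20a* turned to -0.34 without sham library 1 and to -0.04 without SBR vehicle library 3. *Slc1a1* was between 0.21 and 0.78 in all 11 duodenal libraries, under the filter, and was not tested.

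Of the 9 carriers tested in the duodenum, all 9 had a positive difference with all libraries and 0 were called, as were 0% of all genes (limma). At an unadjusted p under 0.05, 4 of the 9 were higher and 0 lower, against 3.41% of all genes higher, and in 5 of the 9 every SBR vehicle library lay above every sham library, against 3.41% of all genes. The median difference of the 9 was 0.81, while the median over all tested genes was -0.36 and 29.96% of all genes were positive. Against that median, *Slc5a1* stood 2.14 and *Slc2a5* 2.03 above. When each library was centred on its own median, both were called (adjusted p = 0.0415 and 0.0339), and *Slc2a5* was also called without SBR vehicle library 1 (adjusted p = 0.0455). Under 17 alternatives, *Slc5a1* was called in 2, with adjusted p-values from 0.0398 to 0.51. *Slc2a5* was called in 3 of 17, with adjusted p-values from 0.023 to 0.463. The part of enterocyte, leukocyte, fibroblast and smooth muscle RNA in these differences was not tested. For acinar RNA, with the acinar level as a covariate, an alternative chosen after the data were seen, the differences were 1.61 for *Slc5a1* and 1.60 for *Slc2a5*. Over all alternatives run, the difference ranged from 0.825 to 1.69 for *Slc3a1* and from 0.477 to 1.34 for *Slc2a2*, without a call.

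**Figure D1:**
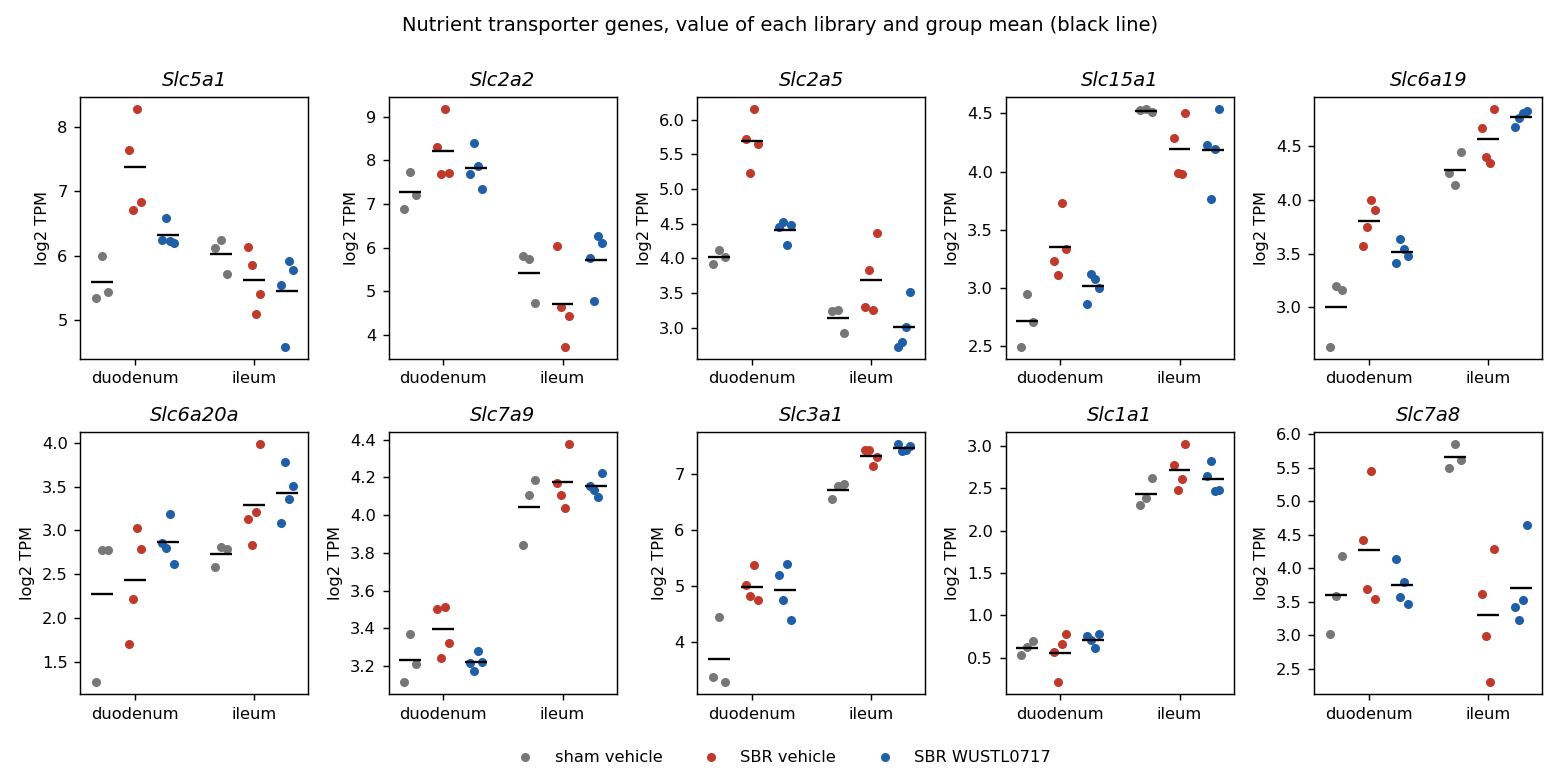
Log2 TPM of the 10 carriers in each library (points) of the duodenum and the ileum, by group (grey sham vehicle, red SBR vehicle, blue SBR WUSTL0717), with the group mean as a black line; each panel has its own axis, which does not start at 0. In the duodenum the 4 SBR vehicle libraries of *Slc2a5* lie between 5.23 and 6.16, above all sham (3.93 to 4.12) and WUSTL0717 (4.19 to 4.52) libraries, and in the ileum the 3 sham libraries of *Slc7a8* (5.49 to 5.85) lie above all others.

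With WUSTL0717, the same 2 sugar carriers of the duodenum lay lower than with vehicle after SBR. *Slc2a5* was 4.46, 4.52, 4.19 and 4.48 with WUSTL0717, below each of the 4 vehicle libraries and above each of the 3 sham libraries. The difference from vehicle was -1.28 (SE 0.32, 0.413-fold, 95% interval -1.97 to -0.58). *Slc5a1* was 6.25, 6.58, 6.23 and 6.20, again below every vehicle library and above every sham library, and differed from vehicle by -1.06 (SE 0.42, 0.481-fold). The exact permutation p was 0.0286 for each, the smallest that 4 libraries against 4 can give. Neither passed adjustment (limma, unadjusted p = 0.00177 and 0.0261, adjusted p = 0.224 and 0.775). The SBR and drug comparisons share the 4 SBR vehicle libraries, so a high value there enters both with opposite sign.

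The other 7 carriers tested had smaller differences with WUSTL0717 in the duodenum. *Slc2a2* differed by -0.40 (95% interval -1.36 to 0.57), *Slc15a1* by -0.34 (-0.95 to 0.28), *Slc6a19* by -0.29 (-0.92 to 0.34), *Slc7a9* by -0.17 and *Slc3a1* by -0.06, all with overlapping groups. *Slc3a1* kept a mean of 4.93 ± 0.45 (SD, n = 4) with the drug, against 4.98 ± 0.28 (SD, n = 4) with vehicle and 3.69 ± 0.65 (SD, n = 3) in sham. *Slc7a8* differed by -0.53 and *Slc6a20a* by 0.43, the one positive value among the 9 tested. Without SBR vehicle library 3, *Slc2a2* differed by -0.075, *Slc15a1* by -0.21 and *Slc7a8* by -0.14, and without SBR vehicle library 1 *Slc6a20a* differed by 0.18. Of the 9, 0 were called, against 0.258% of all genes, 2 were lower at an unadjusted p under 0.05, against 1.65% of all genes, and in 2 all WUSTL0717 libraries lay below all vehicle libraries, against 1.05% of all genes. Summed acinar markers were 7.75 to 10.94 with the drug and 4.95 to 10.15 with vehicle, and with that level as a covariate the differences were -1.19 for *Slc2a5* and -0.84 for *Slc5a1*.

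In the ileum, the SBR and sham libraries overlapped for all 3 sugar carriers, and the largest difference was in *Slc7a8*, the basolateral exchanger of neutral amino acids. It was 5.49, 5.85 and 5.62 in sham and 3.61, 2.98, 2.30 and 4.28 in SBR vehicle, so that all 4 SBR libraries lay below all sham libraries. The difference was -2.36 (SE 0.46, 0.195-fold, 95% interval -3.35 to -1.37), with an exact permutation p of 0.0286 and a limma adjusted p of 0.0587 (unadjusted 0.000223). It was called under 5 of 16 alternatives, with adjusted p-values from 0.0156 to 0.299, among them the fit without SBR vehicle library 4 (adjusted p = 0.0342). With WUSTL0717, *Slc7a8* was 3.42, 3.23, 3.52 and 4.65, a difference from vehicle of 0.41 (95% interval -0.51 to 1.33; 0.08 to 0.74 without 1 library), and all 4 drug libraries again lay below all sham libraries.

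*Slc3a1* was 6.55, 6.78 and 6.81 in sham ileum and 7.43, 7.42, 7.13 and 7.29 in SBR vehicle ileum, a difference of 0.61 (SE 0.23) with no overlap. *Slc6a20a*, the proline carrier, was also higher in every SBR library, by 0.57 (SE 0.30). *Slc15a1* was lower in every SBR library, at 4.53, 4.54 and 4.51 in sham and 4.29, 3.99, 3.98 and 4.50 in SBR vehicle; library 4 lay just under the lowest sham library. Its difference was -0.33 (SE 0.25). The limma adjusted p-values of these 3 genes were 0.438, 0.689 and 0.865. *Slc5a1* differed by -0.40, *Slc2a2* by -0.71, *Slc2a5* by 0.55, *Slc6a19* by 0.29, *Slc1a1* by 0.29 and *Slc7a9* by 0.13, all with overlapping groups. Without SBR vehicle library 4, *Slc2a5* differed by 0.32 and *Slc6a20a* by 0.33, and without library 3, *Slc5a1* differed by -0.23 and *Slc2a2* by -0.38, and without library 1 *Slc2a2* differed by -1.15.

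Of the 10 carriers in the ileum, 0 were called after SBR, against 0.349% of all genes. At an unadjusted p under 0.05, 1 was higher and 1 lower, against 5.52% and 2.94% of all genes. In 2 all SBR libraries lay higher and in 2 all lay lower, against 6.73% and 2.77% of all genes. Of 5 tested markers of the ileum, 4 had a positive difference after SBR, with a median of 0.41. The 2 called were *Slc10a2*, with a mean of 4.82 in sham and 6.84 in SBR vehicle, and the bile acid binding protein *Fabp6*, with 6.10 and 8.15. *Guca2a* (0.41), *Osr2* (0.33) and *Cyp2c55* (-0.36) were not called. Of the duodenum markers tested, 0 of 4 were positive (median -0.70), as were 0 of 6 leukocyte markers (-0.56), 4 of 6 hepatocyte markers (0.76), 6 of 6 fibroblast markers (0.70) and 6 of 6 smooth muscle markers (0.45), beside 0.07 for all genes. The part of these cell types and of the sampled position along the ileum in these differences was not tested.

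With WUSTL0717 in the ileum, 0 of the 10 carriers were called, against 0.0697% of all genes. *Slc2a5* was 3.30, 3.83, 3.25 and 4.36 with vehicle and 2.73, 2.79, 3.02 and 3.52 with WUSTL0717, a difference of -0.67 (SE 0.29) with overlapping groups. It was the only carrier with an unadjusted p under 0.05 in a lower direction (limma, 0.0404, adjusted p = 0.71), against 2.75% of all genes, and it differed by -0.45 without SBR vehicle library 4. *Slc2a2*, the sugar exit carrier, was 6.03, 4.65, 3.73 and 4.44 with vehicle and 5.75, 4.78, 6.26 and 6.11 with the drug, a difference of 1.01 (SE 0.49, adjusted p = 0.768) with overlapping groups. *Slc5a1* differed by -0.16 (95% interval -0.90 to 0.58), and its drug difference in the duodenum minus that in the ileum was -0.89 (SE 0.54, adjusted p = 1), or -0.59 without duodenum SBR vehicle library 3. The remaining 7 carriers differed by -0.12 to 0.41.

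**Figure D2:**
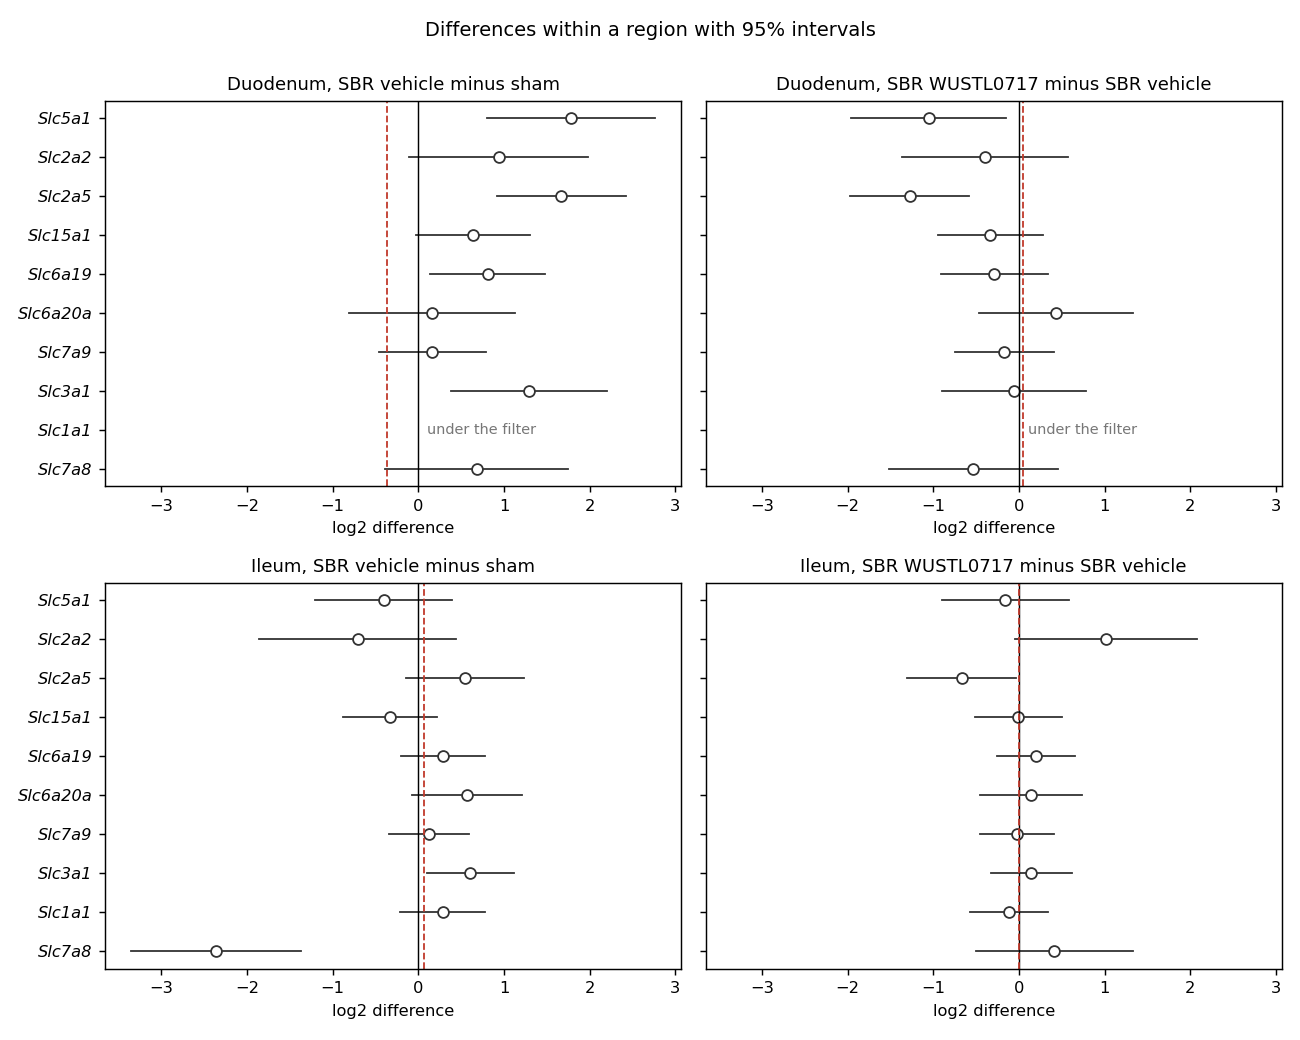
Log2 difference of each carrier (circle) with its 95% limma interval (line) for SBR vehicle minus sham and SBR WUSTL0717 minus SBR vehicle in both regions; open circles are differences that were not called, the black line is 0 and the dashed red line is the median over all tested genes. No circle is filled, and the intervals of *Slc5a1* (0.80 to 2.76) and *Slc2a5* (0.91 to 2.42) after SBR in the duodenum and of *Slc7a8* in the ileum (-3.35 to -1.37) lie farthest from 0.

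Whether the carriers differ between the regions was tested in each condition, on 15923 genes. In sham mice 1 sugar carrier was higher in the duodenum, and the peptide carrier and most amino acid carriers were higher in the ileum. *Slc2a2* was higher in the duodenum by 1.86 (SE 0.55, limma adjusted p = 0.0266), a call lost without any 1 of 4 libraries (sham 2 or 3 of either region, adjusted p = 0.0531 to 0.113). *Slc2a5* lay higher by 0.88 (adjusted p = 0.078) and *Slc5a1* differed by -0.44 with overlapping groups. *Slc3a1* was higher in the ileum by 3.02 on the log2 scale (duodenum minus ileum -3.02, SE 0.35, adjusted p = 3.3e-06), as were *Slc7a8* (-2.06), *Slc1a1* (-1.82), *Slc15a1* (-1.81), *Slc6a19* (-1.28) and *Slc7a9* (-0.81). *Slc1a1* was under the filter in the duodenum of all 3 conditions (means of 0.62, 0.55 and 0.71) and was tested between regions only through its ileal level, so its differences are descriptions whose size depends on the pseudocount (-2.83 to -0.77 over the alternatives in sham, -3.40 to -0.96 in SBR vehicle and -2.81 to -0.84 with WUSTL0717). Thus 1 carrier was called higher in the duodenum and 6, or 5 without *Slc1a1*, in the ileum, against 3.83% and 10.8% of all genes. The median over all genes was itself -0.52, and after centring, *Slc6a19* (adjusted p = 0.0793) and *Slc7a9* (0.409) were no longer called while *Slc2a5* was (0.0136). With the replicate block, *Slc2a2* (0.0519) and *Slc7a9* (0.0775) were not called, nor were *Slc2a2* (0.0903) and *Slc7a8* (0.0554) by the two-sample test or *Slc7a9* (0.11) with the groups alone. *Slc7a9* was also lost without any 1 of 4 libraries (duodenum sham 1 or 3, ileum sham 2 or 3, adjusted p = 0.0642 to 0.0991), and *Slc7a8* without duodenum sham 1 (0.0572).

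After SBR with vehicle, all 3 sugar carriers were higher in the duodenum: *Slc2a2* by 3.51 (SE 0.48, 11.4-fold), *Slc2a5* by 2.00 (SE 0.29, 4-fold) and *Slc5a1* by 1.75 (SE 0.38, 3.36-fold), with adjusted p-values of 9.9e-06, 1.88e-05 and 0.000763 and no overlap of the groups. These 3 of 10 compare with 6.77% of all genes. *Slc3a1* (-2.34), *Slc1a1* (-2.17), *Slc6a20a* (-0.86), *Slc15a1* (-0.84), *Slc7a9* (-0.78) and *Slc6a19* (-0.76) were called higher in the ileum, which is 6 of 10 (5 of 9 without *Slc1a1*) against 50.2% of all genes. The call of *Slc6a20a* (adjusted p = 0.0421) was lost without any 1 of 5 libraries (duodenum 1 or 2, ileum 1, 3 or 4, adjusted p = 0.057 to 0.156). It was also lost with library weights (0.0525), a pseudocount of 0.1 (0.0502), the two-sample test (0.118) and the groups alone (0.0845), where *Slc6a19* was lost too (0.0572). *Slc6a20a* was called under 6 of 16 alternatives. The median over all genes was -0.98 here, and after centring the last 4 of these turned to small positive differences of 0.08 to 0.17 that were not called, while *Slc3a1* (-1.41) stayed called, as did *Slc1a1* (-1.24) with the limit given above. *Slc7a8* lay higher in the duodenum by 0.98 (SE 0.45, adjusted p = 0.0645), the opposite side from sham, and was called without any 1 of 3 libraries (duodenum 2 or 4, ileum 4, adjusted p = 0.0221 to 0.0484) and after centring (1.91, 0.00122). It fell to 0.59 (0.249) without duodenum library 3 and to 0.65 (0.235) without ileum library 3.

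With WUSTL0717, 2 of the 3 sugar carriers were called higher in the duodenum. *Slc2a2* was higher in the duodenum by 2.10 (SE 0.48) and *Slc2a5* by 1.40 (SE 0.29), with adjusted p-values of 0.00117 and 0.000551, and *Slc5a1* lay higher by 0.85 (SE 0.38, adjusted p = 0.0597) with no overlap, and was called after centring (1.74, 0.00179) and without ileum WUSTL0717 library 3 (0.0465), while it was 0.56 (0.222) without ileum WUSTL0717 library 2. These 2 called carriers compare with 7.13% of all genes. In the ileum 5, or 4 without *Slc1a1*, were called higher, against 48.7% of all genes. Of these, *Slc3a1* (-2.54) was also called after centring, as was *Slc1a1* (-1.89) with the limit given above. *Slc15a1* (-1.17), *Slc6a19* (-1.25) and *Slc7a9* (-0.93) were not (the median over all genes was -0.95). *Slc7a8* differed by 0.04 (SE 0.45).

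Markers of cell types differed between the regions too. All 9 acinar markers were called higher in the duodenum in each of the 3 conditions. The 8 enterocyte markers had a median of -1.02 in sham (1 called higher and 3 lower in the duodenum), -0.55 in SBR vehicle (1 and 4) and -0.94 with WUSTL0717 (1 and 3), beside medians of -1.04, -0.77 and -0.75 for the 10 carriers. In SBR vehicle, 6 of 6 smooth muscle and 5 of 6 fibroblast markers were called higher in the ileum, and with WUSTL0717 3 and 5 were, against 0 and 2 in sham. Leukocyte markers were called higher in the ileum in 1, 2 and 2 of 6 cases and hepatocyte markers in 2, 3 and 4 of 6, in the order sham, SBR vehicle and WUSTL0717, and 1 hepatocyte marker was called higher in the duodenum in sham. Their part in the regional differences was not tested.

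**Figure D3:**
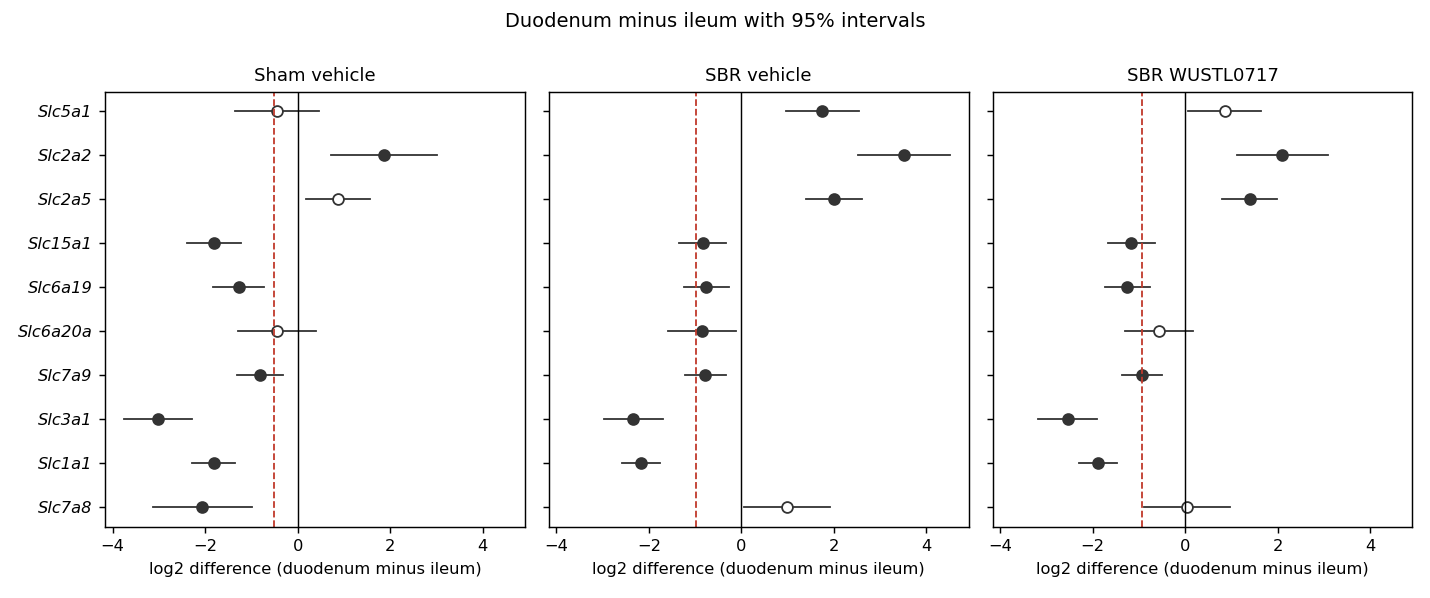
Duodenum minus ileum, as a log2 difference (circle) with its 95% limma interval (line), for each carrier in the 3 conditions; filled circles were called at an adjusted p under 0.05, the black line is 0 and the dashed red line is the median over all tested genes. *Slc2a2* is right of 0 in all 3 panels (1.86, 3.51 and 2.10), *Slc3a1* and *Slc1a1* are left of 0 in all 3, and *Slc7a8* is at -2.06 in sham, 0.98 in SBR vehicle and 0.04 in SBR WUSTL0717.

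The difference between the regions in their response was tested directly. The SBR difference in the duodenum minus that in the ileum was 3.04 (SE 0.68) for *Slc7a8* and 2.19 (SE 0.58) for *Slc5a1*, with limma adjusted p-values of 0.0898 and 0.173 (unadjusted 0.000203 and 0.00107). Without SBR vehicle duodenum library 1, *Slc7a8* was called (adjusted p = 0.0433). Under 22 alternatives it was called in 3, with adjusted p-values from 0.015 to 0.24. *Slc5a1* was called in 1 of 22, with adjusted p-values from 0.0373 to 0.357. For *Slc2a2*, *Slc2a5* and *Slc15a1* it was 1.65, 1.12 and 0.97, with adjusted p-values of 0.344, 0.316 and 0.308. Of the 10 carriers, 8 had a positive value, against 28.4% of all genes, 0 were called, against 0.0754% of all genes, and 5 were higher at an unadjusted p under 0.05, against 2.57% of all genes. The median over all genes was -0.44. For the drug, 0 were called against 0.0251% of all genes, and 1, *Slc2a2* at -1.41 (SE 0.67, unadjusted p = 0.0484 by limma, adjusted p = 1), was lower at an unadjusted p under 0.05, against 1.25% of all genes.

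The carriers work with partner proteins, 4 of which could be tested. In sham mice all 4 were called higher in the ileum, where 10.8% of all genes were, among them *Slc3a2*, the heavy chain that LAT2 needs (-2.70), and the scaffolds *Pdzk1* (-2.78) and *Slc9a3r1* (-2.40). *Slc3a2* was lower in every SBR library of the ileum, as its light chain *Slc7a8* was, at 6.80, 7.26 and 7.93 in sham and 6.48, 6.59, 5.70 and 6.10 in SBR vehicle, a difference of -1.11 (SE 0.35, adjusted p = 0.3) with no overlap. *Slc9a3r1* had the largest partner difference in the duodenum after SBR, 2.39 (SE 0.45, adjusted p = 0.116). Of the 4 partners, 0 were called in either direction in the SBR and drug comparisons of both regions.

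The other carriers of the same nutrients and the ion pumps and exchangers that power uptake were counted from lists. These lists were chosen with earlier results of these data known. In the ileum after SBR, 2 genes fell: *Slc36a1*, a proton-coupled carrier of small amino acids, from a mean of 7.00 to 4.40 (difference -2.60, SE 0.40, adjusted p = 0.0159), and *Slc9a3*, the sodium-proton exchanger NHE3, from 3.75 to 1.94 (difference -1.81, SE 0.31, adjusted p = 0.0316). They were the only calls, both lower, among the 35 tested genes of the 5 lists, where 0.108% of all genes were called lower. The lists' median was 0.14 beside 0.07 for all genes. *Slc9a3* kept a mean of 2.08 ± 0.42 (SD, n = 4) in the ileum with WUSTL0717. In the duodenum 0 of 32 tested list genes were called after SBR and 0 with the drug.

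Genes of fructose handling did not share the direction of the fructose carrier with the drug. In the ileum, all 6 had a positive difference with WUSTL0717, with a median of 1.22 beside 0.003 for all genes, 5 of them at an unadjusted p under 0.05, against 4.12% of all genes, and 0 called. Of all genes, 50.4% were positive. Of 6 hepatocyte markers, 5 were positive with the drug in the ileum (median 0.90) and 5 in the duodenum (median 0.45), none called. At an unadjusted p under 0.05 (limma), 2 of these markers were higher and 1 lower in the ileum, against 4.12% and 2.75% of all genes. Their part in the result, and that of the *Apoa1*-led enterocyte sum given above, was not tested. *Khk*, which phosphorylates fructose, was 6.67, 6.30, 5.44 and 6.63 with vehicle and 6.87, 6.64, 8.02 and 8.28 with WUSTL0717, a difference of 1.19 (SE 0.43, adjusted p = 0.609), while *Slc2a5* differed by -0.67. *Mlxipl*, the sugar-sensing factor ChREBP, differed by 1.24 (SE 0.50, adjusted p = 0.664). In the duodenum all 6 were also positive with the drug, as were 54.2% of all genes, with a median of 0.69 beside 0.04, and after SBR 4 of 6 were positive, with a median of 0.19 beside -0.36. *Mlxipl* differed by -1.61 (SE 0.80) after SBR in the duodenum, where *Slc2a5* differed by 1.67.

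**Figure D4:**
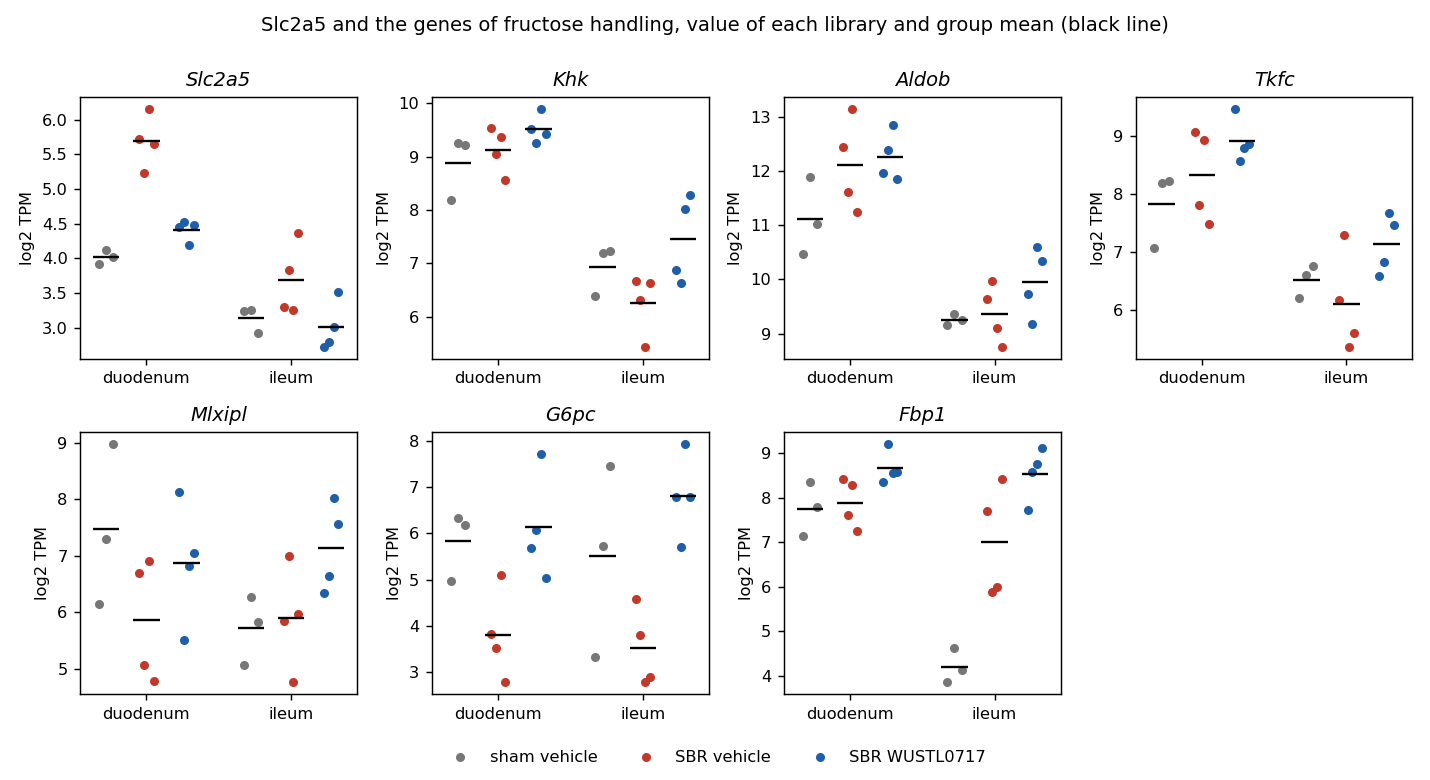
Log2 TPM of *Slc2a5* and of the 6 genes of fructose handling in each library (points) by region and group (grey sham vehicle, red SBR vehicle, blue SBR WUSTL0717), with the group mean as a black line; axes differ and do not start at 0. With WUSTL0717 the group mean of *Slc2a5* is below that of SBR vehicle in both regions (4.41 against 5.69 and 3.02 against 3.69), and the means of the other 6 genes are above it.

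Among the 11 duodenal libraries, the carriers varied together more than among the 11 ileal ones. The median Pearson r over the 45 pairs of carriers was 0.63 in the duodenum and 0.14 in the ileum, given as a description because libraries of a group and a region share their differences. The highest pair in the duodenum was *Slc5a1* and *Slc2a5* (r = 0.94, n = 11), and in the ileum *Slc15a1* and *Slc7a8* (r = 0.84, n = 11). The lowest ileal pair was *Slc3a1* and *Slc7a8* (r = -0.70, n = 11). Over all 22 libraries, the 5 genes most like the mean of the 10 standardized carriers included *Btnl7-ps* (0.902), *Ccser2* (0.901), *Cobl* (0.898) and *Gk* (0.896), a likeness that includes the gap between the regions.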

How the data were processed

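RNA of the duodenum, ileum and liver was sequenced after depletion of ribosomal RNA. The authors aligned reads with STAR to GRCm38, counted reads of unique position with featureCounts, scaled them with edgeR, computed TPM, took log2 and removed a batch effect with ComBat, and deposited log2 TPM values of 40 libraries. Their tool versions are not printed here, and the pseudocount is not given in the sources used here. Intestine was batch 1 and liver batch 2, so batch and these tissues cannot be told apart, and the correction may have changed levels and the size of differences. After it, the mean of each carrier over liver and over intestine differed by at most 0.787. Levels, folds and the filter thus refer to corrected values, not to the TPM of the tissue. Liver values were not used otherwise. The deposited table gives no read totals, so depth per sample and the precision it sets are unknown. Values below 0 occur. Turned back with a pseudocount taken as 1, they summed to 637587 to 863110 TPM per duodenal and 618212 to 807720 per ileal library.

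Libraries were grouped by their labels. Genes whose mean over the fitted libraries reached 1 were tested with limma 3.58.1 (R 4.3.3, variance trend), within a region on 11 libraries and 3 groups, and between regions on 22 libraries and 6 groups. For each carrier an exact permutation of the libraries between the groups gave a two-sided p, which cannot give a p below 0.0286 for 4 against 4 or 4 against 3, or below 0.1 for 3 against 3. P-values set a difference between groups against the spread between these samples. The fit was run on simulated data of independent genes with a planted shift. That run checked only the estimated size of the shift and says nothing on the calls in these libraries. No 2 libraries of a group were duplicates (smallest mean absolute difference 0.472). Figures were drawn with matplotlib 3.10.9.

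The carriers and gene lists were chosen with earlier results of these data known. All 10 carriers are named. Of the other lists, *Slc3a2*, *Slc9a3*, *Khk* and *Mlxipl* are named by rule, with called genes of smallest p, *Abca1* as drug check and the genes most alike. Some genes that this rule names are not reported here. *Slc9a3r1* and *Pdzk1* were named after their values were seen. Alternatives were other filters (none, 3), pseudocounts (5, 0.1), centring on the library median, library weights, a replicate block, an unmoderated two-sample test, the compared groups alone, each library left out, and an added acinar covariate.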

Additional observations from a re-analysis of the deposited data

Results flagged for a closer look

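Among the 64 groups of 4 libraries looked at (16 genes in 4 groups), 3 held a library far from the other 3, where chance gives about 1 in 20. *Slc5a1* in WUSTL0717 duodenum library 2 was 6.58, above the next at 6.25, and the lowest was 6.20. *Abca1* in SBR vehicle duodenum library 3 was 4.12, above the next at 2.7, the same library that was highest in its group for every carrier except *Slc1a1*. *Abca1* in SBR vehicle ileum library 2 was 4.07, below the next at 4.78.

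*Slc15a1*, the peptide carrier, had differences of opposite sign after SBR, neither of which was called: every SBR vehicle library lay above every sham library in the duodenum (difference 0.64) and below every sham library in the ileum (-0.33). The difference between these was 0.97 (limma, unadjusted p = 0.0157, adjusted p = 0.308), so it did not pass the test of the difference itself. Relative to the median of all genes it was 1.42.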

How the results depend on the processing

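Of 1581 values of single carriers under an alternative, 1492 kept their direction and their side of the threshold and 37 changed sign. With the sign kept, 29 lost and 23 gained a call. The called differences whose sign centring turned, given below, are among the 37 and lost their calls too. No depth was known, so what depth limits could not be set.

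The count of called carriers after SBR in the duodenum was 0 and became 2 after centring and 2 with library weights, with 0 to 1 over fits that left out 1 library. All genes called there went from 0 to 96 and 2497. After SBR in the ileum it was 0 and became 1 with a filter at 3, a pseudocount of 5, library weights and the replicate block, with 0 to 1 when 1 library was left out. For the difference of the SBR response between regions it was 0 and became 1 after centring and 2 with library weights, with 0 to 1 when 1 library was left out. The cause was not tested. Both drug counts and that of the difference of the drug response were 0 under every alternative run, and the regional counts stayed within 5 to 7 (sham), 8 to 10 (SBR vehicle) and 7 to 8 (WUSTL0717) when 1 library was left out.

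The replicate block (same number in the labels) changed no other count of called carriers by over 1.5 times, with 5, 9 and 7 carriers called between regions. Same-numbered duodenal and ileal libraries correlated at -0.14 to 0.45, 5 of 11 above 0.1, and 6 of 11 duodenal libraries correlated best with their own number, so the numbers were not taken as pairs. *Slc7a8* after SBR in the ileum had an adjusted p of 0.0394 with the block.

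Counts of all genes called moved by over 1.5 times. The drug count of 39 in the duodenum became 8 with the replicate block, 2 with the two-sample test, 11 with the groups alone, 85 with library weights, 7 with the acinar covariate and 7 to 28 without 1 library. That of 55 after SBR in the ileum became 12, 5, 10 and 279 (3 to 38 without 1 library), and that of 11 with the drug in the ileum 1, 1, 1 and 18 (2 to 12). For the difference of the SBR response, 12 became 60 after centring, 1989 with library weights, 4 with a filter at 3, 22 with a pseudocount of 5, 3 with the groups alone and 1 with the block. Between regions in sham, 2331 became 1434 with a filter at 3, 1069 with the two-sample test, 1420 with the groups alone and 5549 with library weights. After centring and with a filter at 3, 9068 in SBR vehicle became 4948 and 4826, and 8895 with WUSTL0717 became 4737 and 4877.

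Centring turned the sign of 4 called differences and of uncalled ones down to -0.57 (*Slc6a20a* with WUSTL0717). After centring, duodenum minus ileum became 0.015 for *Slc5a1* and 0 for *Slc6a20a* in sham, 0.10 for *Slc15a1*, 0.17 for *Slc6a19*, 0.076 for *Slc6a20a* and 0.15 for *Slc7a9* in SBR vehicle (called at -0.84, -0.76, -0.86 and -0.78 as reported), and 0.31 for *Slc6a20a* with WUSTL0717, and the difference of the SBR response became 0.076 for *Slc6a20a* and 0.13 for *Slc1a1*. With library weights it became -0.049 for *Slc7a9*, the difference of the drug response 0.004 for *Slc3a1*, duodenum minus ileum with WUSTL0717 -0.071 for *Slc7a8*, and the drug difference 0.13 for *Slc3a1* in the duodenum (0.05 with the acinar covariate) and 0.048 for *Slc15a1* in the ileum. Without 1 library, the drug difference ran from -0.21 to 0.13 for *Slc3a1* in the duodenum, and in the ileum from -0.34 to 0.13 for *Slc5a1*, -0.13 to 0.13 for *Slc15a1*, -0.01 to 0.38 for *Slc6a20a* and -0.066 to 0.047 for *Slc7a9*. The SBR difference of *Slc6a20a* in the duodenum ran from -0.34 to 0.41, its regional difference in sham from -0.71 to 0.05, that of *Slc7a8* with WUSTL0717 from -0.12 to 0.35, and the difference of the SBR response of *Slc7a9* from -0.037 to 0.14.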
